A study of Mus musculus with 18 samples.

Results

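The genes described here belong to families that help carry proteins between the endoplasmic reticulum (ER) and the Golgi apparatus, though not every member does. They were chosen by name in the table of normalized values, as all genes whose symbol begins with Sec13, Sec16, Sec22, Sec23, Sec24 or Sec31, the Sar1 genes, the coatomer genes that begin with Cop, and the numbered Tmed, Arf, Golga and Gorasp genes. This gave 48 of the 14451 genes of the table, and all 48 were above the floor of the values in all 18 livers. They fell into 6 classes, namely the COPII coat with 14 genes, the p24 family with 9, the COPI coat with 8, the golgins and GRASPs with 8, the ARF GTPases with 6 and the Sec22 family with 3. The values come from RNA sequencing of whole livers of wild-type male mice aged 8 to 9 weeks, kept in a cycle of 12 h of light and 12 h of dark. Zeitgeber time (ZT) counts the hours after lights on. Livers were taken in the light at ZT1, ZT5 and ZT9 and in the dark at ZT13, ZT17 and ZT21. Each time point had 3 livers from 3 mice, no mouse was followed over time, and the mice sequenced were those with the best RNA among a larger group.

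Secretory proteins leave the ER in vesicles coated with COPII. The GTPase Sar1 inserts into the ER membrane and recruits the inner coat of Sec23 and Sec24, of which Sec24 binds the cargo, and Sec13 and Sec31 then form the outer cage. Vesicles coated with COPI, a complex called coatomer that the GTPase Arf1 recruits, return proteins from the Golgi to the ER and move them between Golgi cisternae. The p24 proteins, made by the Tmed genes, travel in both kinds of vesicle as cargo adaptors, the SNARE Sec22b helps vesicles fuse, and golgins and GRASPs tether vesicles and hold the Golgi stack together. Hepatocytes use this route to release albumin, clotting factors and lipoproteins into the blood.

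The values are estimated read counts plus 0.5, scaled by the authors to 1000000 reads of an effective library size, on a linear scale, and they are called normalized values below. The lowest value of a liver stands for 0 reads and so gives its depth, which ran from 10268168 to 23242842 estimated reads with a median of 12078875, and the 48 genes were covered by between 33 and 4897 reads each in any 1 liver. The livers carried the markers of their label. The summed value of 8 hepatocyte markers, of which Alb was the most abundant, lay between 79201 and 112765 per liver, with the lowest mean at ZT9 (82145) and the highest at ZT17 (105240), a sum that was not tested. That of 7 Kupffer cell markers, led by Clec4f, ran from 109.5 to 291, and that of 7 endothelial markers, led by Kdr, from 95.4 to 249.9. No marker of either list was at the floor in every liver. By the 24 h test given below, 4 and 3 of these markers were rhythmic, where 35.3% of all genes were. In order from ZT1 to ZT21 the mean sums were 186, 246, 248, 225, 179.8 and 145 for Kupffer cells and 162, 218, 193, 179.8, 146 and 141 for endothelial cells. Both were thus highest at ZT5 or ZT9 and lowest at ZT21, while ZT1 lay below ZT13. Replicate 1 of ZT5 had the highest sum for both lists and for 5 erythroid markers, which summed to 674 there against a median of 228 over all livers. By 16 clock genes, 17 of the 18 livers lay nearest to the other livers of their own time point. The liver called replicate 3 of ZT5, which was also the deepest, lay nearer to ZT9, at a root mean square distance of 0.516 on the log2 scale against 0.689 to its own time point. The main counts are given below with and without these ZT5 livers.

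As a group the 48 genes were well expressed. The median of their mean values was 59.4, against 11.1 over all 14449 genes tested. Per kilobase of exon, Sar1b had the highest mean value, 148, followed by Arf1 with 96.2 and Tmed2 with 78.1. These are the Sar1 form of the COPII coat, the GTPase of coatomer and a p24 protein that pairs with Tmed10. In the other classes the highest mean values per kilobase were those of Copz1 with 35.8, Gorasp2 with 18.7 and Sec22b with 12.5. The lowest of all was Tmed8 with 0.60, and in each liver its value stayed between 3.05 and 7.09.

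Part of the set rose and fell with the day. For every gene limma fitted a 24 h cosine to log2(value + 1), and a gene was called rhythmic at a Benjamini–Hochberg adjusted p below 0.05. By this rule 18 of the 48 genes (37.5%) were rhythmic, against 35.3% of all 14449 genes tested. Genes with higher values were called more often, so that the share was 39.2% of genes with a value of at least 1 in at least 3 livers, 43.8% of all genes at or above the mean value of the lowest of the 48 and 51.6% of those at or above their median. The share in the set was thus near that of all genes and below that of genes with similar or higher values. The median difference between peak and trough of the fitted cosine was 0.24 on the log2 scale over the 48 genes and 0.32 over all genes tested, and among rhythmic genes it was 0.55 in both. The rhythmic genes were Sar1a, Sar1b, Sec13, Sec23b, Sec24d and Sec31a of the COPII coat, Copg1 and Copg2 of coatomer, Arf1, Arf3 and Arf4, the p24 genes Tmed3, Tmed5 and Tmed9, Sec22b and Sec22c, and Gorasp1 and Golga2. In bulk tissue, fewer cells of a type and less RNA per cell cannot be told apart.

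Of these 18 genes, 12 (66.7%) had their fitted peak in the dark, against 48.4% of all 5103 rhythmic genes. The peak lay nearest to ZT17 for 7 genes (38.9%, against 20.1% of all rhythmic genes), to ZT13 for 6 (33.3% against 13.2%), to ZT5 for 3 (16.7% against 21.9%) and to ZT9 for 2 (11.1% against 15.6%). It lay nearest to ZT21 or ZT1 for none, against 14.8% and 14.4%. Gorasp1, counted as dark with a peak at 12.2 h, and Sar1a, counted as light with 11.6 h, lay close to the cut at 12 h. With equal column sums, where Arf1 was not called, its peak lay at 11.7 h instead of 13.5 h. The count of rhythmic genes was 19 without replicate 1 of ZT5 and 18 without replicate 3 of ZT5. It was 17 with the summed Kupffer cell and endothelial markers as a covariate, a fit added after the data were seen. JTK, a test on ranks, called 13 of the 48 genes, against 14.1% of all genes, and all 13 were among the 18. The 5 genes that it did not call were Sar1a, Sec24d, Sec13, Sec22c and Arf1, with adjusted p between 0.0537 and 0.158.

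**Figure D1:**
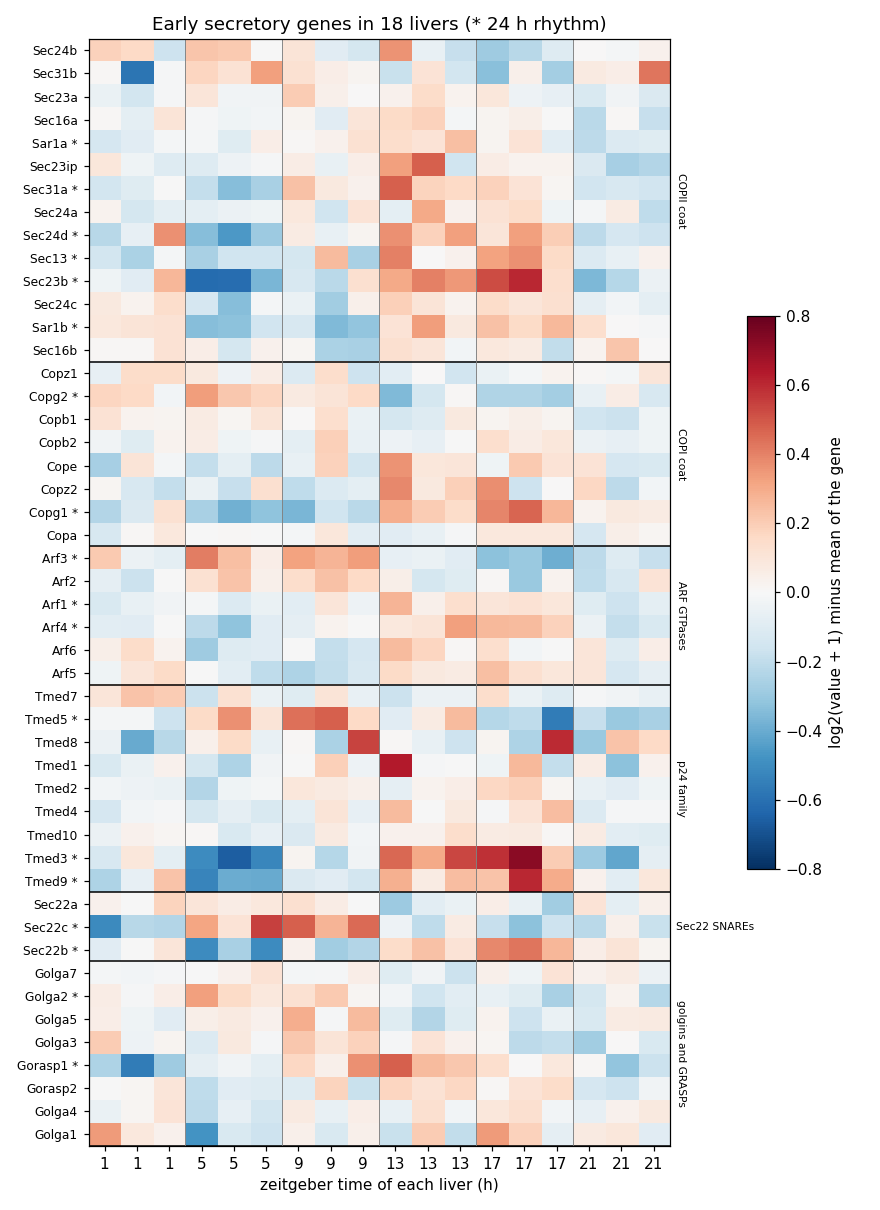
Each row is a gene and each column a liver, ordered by zeitgeber time in hours, and colour gives log2(value + 1) minus the mean of the gene over the 18 livers, with rhythmic genes starred. Rows are grouped by class and ordered by fitted peak, and the darkest blue cells of Tmed3, Sec23b and Sec22b stand at ZT5 while those of Sec22c stand at ZT1 and those of Tmed5 at ZT17.

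The stretch before the transcript start was available from RefSeq (GRCm38.p6) for 43 of the 48 genes, as 51 promoters of 250 bases. It was searched on both strands for short motifs of factors that act on secretory or rhythmic genes, and the share with a match is given as a description. The shares over the genes of the table were not matched to the set for level or base composition. CCACG, the part of the ER stress element that ATF6 and XBP1 bind, was present in 29 of the 43 genes (67.4%), against 44.9% of the genes of the table with a promoter. ACGT, the core of the sites of many leucine zipper factors, was present in 26 genes (60.5%) against 38.7%. Of the 18 rhythmic genes, 14 held CCACG and 10 held ACGT, and of the 12 that peaked in the dark, 8 and 7 did. TGACGTGG, the core of the unfolded protein response element, which holds both ACGT and the reverse complement of CCACG, was present in 4 genes, Arf1, Copb1, Sec16b and Sec24d (9.30% against 0.834%). CACGTG, the E-box of the clock, which holds ACGT, was present in 7 genes (16.3% against 9.70%), of which Sar1a and Sec22c were rhythmic. The cyclic AMP response element TGACGTCA, which also holds ACGT, was present in Cope alone (2.33% against 2.96%), and the CCAAT box, CCAAT, in 19 genes (44.2% against 40.5%). The D-box TTATGTAA was in none of the 43 and in 0.640% of the genes of the table, and the whole ER stress element in none and in 0.174%. No match says only that these letters are not in this window. The stretches below are those of the genes with the smallest p for a 24 h rhythm (Copg1, Arf3) and for a 12 h term (Sar1b, Sec22c), without bases that GENCODE M21 annotates as untranslated, and for Arf3 from the second of its RefSeq promoters. Some of these bases lie inside genes as GENCODE draws them. The stretch of Sec22c lies inside Sec22c, which has an earlier start, most of that of Sar1b, its marked ATTGG included, lies inside the neighbour Sec24a, partly in a non-coding exon, and the last 3 bases of that of Arf3 lie inside Arf3. Capitals mark motif matches on either strand, namely CCACG or its complement CGTGG in Copg1, Arf3 and Sec22c, the E-box in Sec22c, and the CCAAT box, read as ATTGG on this strand, in Sar1b and Sec22c.
Copg1, chr6:87887690-87887813, plus strand: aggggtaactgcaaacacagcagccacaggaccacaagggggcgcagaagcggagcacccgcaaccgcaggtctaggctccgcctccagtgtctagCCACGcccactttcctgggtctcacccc
Arf3, chr15:98763212-98763368, minus strand: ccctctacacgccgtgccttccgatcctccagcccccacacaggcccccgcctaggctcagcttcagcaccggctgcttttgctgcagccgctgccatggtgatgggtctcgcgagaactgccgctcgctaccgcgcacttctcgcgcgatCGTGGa
Sar1b, chr11:51763413-51763662, plus strand: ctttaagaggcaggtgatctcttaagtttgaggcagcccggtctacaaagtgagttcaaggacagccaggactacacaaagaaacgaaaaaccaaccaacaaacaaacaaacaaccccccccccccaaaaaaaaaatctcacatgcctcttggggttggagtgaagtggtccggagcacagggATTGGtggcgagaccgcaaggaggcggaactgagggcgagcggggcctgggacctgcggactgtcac
Sec22c, chr9:121705030-121705213, minus strand: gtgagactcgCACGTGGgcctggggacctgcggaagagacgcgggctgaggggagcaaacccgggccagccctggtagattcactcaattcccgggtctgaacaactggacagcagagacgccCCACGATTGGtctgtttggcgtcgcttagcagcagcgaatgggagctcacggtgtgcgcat
The 4 stretches differ in what they hold, and Sec22c alone among them has an E-box. Sar1b and Sec24a lie head to head on chromosome 11, with 52 bases between the annotated starts of the genes, and only Sar1b was rhythmic.

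In the COPII coat, 6 of 14 genes (42.9%) were rhythmic, a share near the 35.3% of all genes and the 43.8% of genes at or above the lowest of the 48, and 5 of the 6 peaked in the dark, against 48.4% of all rhythmic genes. Sec23b (GRCm38, as for all positions here; ENSMUSG00000027429, chromosome 2 from 144556229 to 144590749), a form of the inner coat protein that makes Sar1 hydrolyse GTP, had normalized values of 34, 34.2 and 40.5 in the livers of ZT5 and of 76, 80.4 and 57.8 at ZT17. Every ZT17 liver was above every ZT5 liver, and the means were 36.2 ± 3.74 and 71.4 ± 12 (SD, n = 3). On the log2 scale its peak exceeded its trough by 0.73 ± 0.17 (SE; limma adjusted p = 0.00703), and the fitted peak was at 15.6 h. Its paralogue Sec23a stayed between 76.5 and 97.6 in all livers and did not pass the test (limma adjusted p = 0.0906), though 3 of the 8 alternatives that kept all livers called it, with adjusted p of 0.0375, 0.0306 and 0.0456 for log2(value + 5), equal column sums and an intensity trend.

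Sec24d, a cargo-binding form of Sec24, had values of 65.7, 60.5 and 68.1 at ZT5 and of 108, 95 and 105 at ZT13. These groups did not overlap, but the ZT1 livers, with 71.6, 79.7 and 108, spanned the range from near the lowest group to the highest. The difference from peak to trough was 0.48 ± 0.13 on the log2 scale (limma adjusted p = 0.0220), and without replicate 2 of ZT5 the adjusted p was 0.0511. The other 3 forms, Sec24a, Sec24b and Sec24c, were not called, with differences of 0.17, 0.22 and 0.21.

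Sar1b (ENSMUSG00000020386, chromosome 11 from 51763687 to 51791925), the Sar1 form that human chylomicron secretion depends on, was low at ZT5 and ZT9 and high at the other times. Its values were 196, 198 and 200.1 at ZT1, 145, 147 and 166 at ZT5, 169, 144 and 148 at ZT9, 199, 233 and 195 at ZT13, 217, 205 and 220.5 at ZT17 and 202, 185 and 183 at ZT21. All 6 livers of ZT5 and ZT9 were below the other 12. The fitted difference was 0.47 ± 0.10 on the log2 scale with a peak at 18.1 h (limma adjusted p = 0.00440). Sar1a, the second Sar1 gene, varied less and peaked near dusk, at 11.6 h, with values of 86.2, 84.1 and 92.4 at ZT13 and of 67.2, 72.3 and 72.8 at ZT21. Its difference was 0.26 ± 0.07 (limma adjusted p = 0.0182).

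Of the outer cage genes, Sec31a and Sec13 were rhythmic with peaks in the dark. Sec31a had values of 111, 100.02 and 106 at ZT5 and of 177, 144 and 142 at ZT13, with a fitted peak at 13.5 h and a difference of 0.45 ± 0.09 on the log2 scale (limma adjusted p = 0.00382). Sec13, which is also part of the nuclear pore, had values of 34.5, 36.9 and 37 at ZT5 and of 52, 53.6 and 46.1 at ZT17. The ZT17 livers were all above the ZT5 livers, whereas the ZT9 livers spread across both. Its difference was 0.44 ± 0.11, with a peak at 15.6 h (limma adjusted p = 0.0104). Sec23ip, a partner of Sec23, was not called (difference 0.27 ± 0.11, limma adjusted p = 0.132). Sec31b, a low form of Sec31 with a mean value of 5.83 and its highest mean at ZT5 (6.79 ± 0.609), and the ER exit site scaffolds Sec16a and Sec16b were not called, with adjusted p of 0.599, 0.328 and 0.337 by limma.

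**Figure D2:**
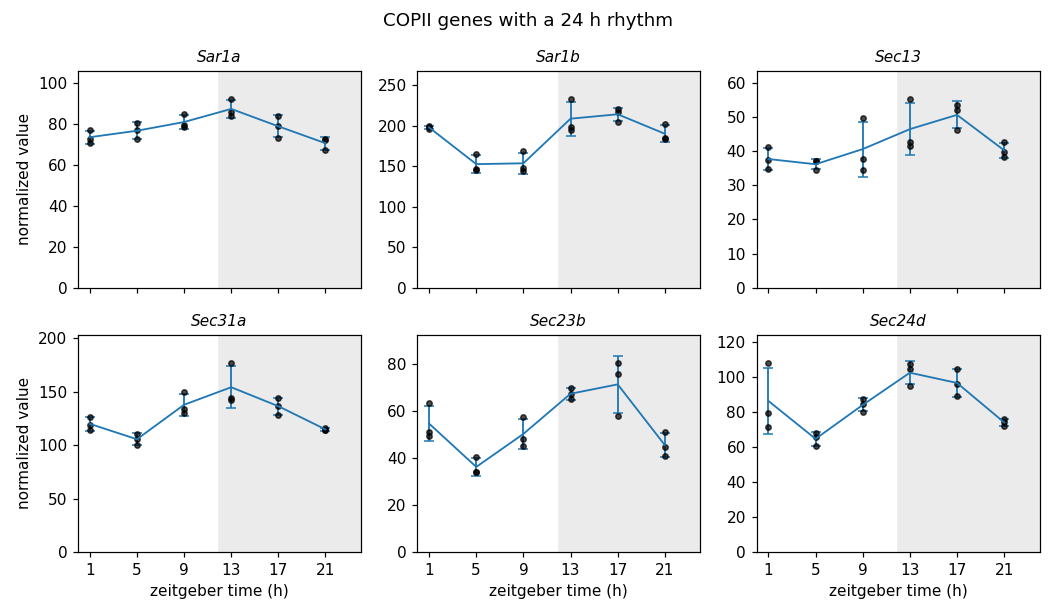
Normalized values (linear scale, axis from 0) of the 6 rhythmic COPII genes against zeitgeber time in hours, with a point per liver, lines through the means of 3 livers, bars of 1 SD and the dark phase shaded. Sec23b ran from 36.2 ± 3.74 at ZT5 to 71.4 ± 12 at ZT17, and Sar1b was low at both ZT5 and ZT9.

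Coatomer is a complex of several subunits, some of which come in alternative forms. Only the genes of the γ subunit were called, 2 of 8 (25%, below the 35.3% of all genes), and they ran in opposite directions. Copg1 (ENSMUSG00000030058, chromosome 6 from 87887814 to 87913595), which makes γ1, had values of 67.2, 61.5 and 64 at ZT5, 62.2, 72 and 69.1 at ZT9, 98.6, 92.8 and 89 at ZT13 and 106, 111 and 97.1 at ZT17. Each liver of ZT13 and ZT17 was above each liver of ZT5 and ZT9. The fitted difference was 0.66 ± 0.09 on the log2 scale with a peak at 17 h (limma adjusted p = 8.33e-05), the smallest p among the 48 genes. Copg2 (ENSMUSG00000025607, chromosome 6 from 30747554 to 30896794), which makes γ2, had values of 34.9, 32.2 and 31.1 at ZT5 and of 23.2, 23.1 and 22.7 at ZT17, again without overlap. Its difference was 0.47 ± 0.08 with a peak at 4.50 h (limma adjusted p = 0.000547). Copg2 shares 17.8% of its exon bases with Mest on the opposite strand, whose mean value was 2.04, and whether the library kit kept the strand is not given in the sources used here.

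For 4 of the other 6 coatomer genes the fitted differences were small, namely 0.04 for Copa, 0.05 for Copb2, 0.11 for Copb1 and 0.14 for Copz1 on the log2 scale. These encode the α, β′, β and ζ1 subunits. Copa stayed between 186 and 218 in the 18 livers. Cope, the ε subunit, and Copz2, the second form of ζ, had differences of 0.29 ± 0.10 and 0.24 ± 0.12, with limma adjusted p of 0.0710 and 0.229. That of Cope was larger than those of the called Arf1 and Sar1a, and 2 of the 8 alternatives that kept all livers called it. Arcn1, the δ subunit, whose symbol does not begin with Cop, was not called either (0.14 ± 0.08, limma adjusted p = 0.329).

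Among the ARF GTPases, 3 of 6 were rhythmic (50%, against 35.3% of all genes). Arf3 peaked in the light and the other 2 in the dark. Arf3 (ENSMUSG00000051853, chromosome 15 from 98736634 to 98763214), a close relative of Arf1 that acts at the trans-Golgi, had values of 58.2, 56.2 and 58.6 at ZT9 and of 36.7, 37.5 and 35.1 at ZT17. Every liver of ZT5 and ZT9 was above every liver of ZT13, ZT17 and ZT21. Its difference was 0.61 ± 0.08 on the log2 scale with a peak at 6.38 h (limma adjusted p = 8.87e-05). Arf4 had values of 93.2, 86.2 and 101 at ZT5 and of 129.6, 129 and 123 at ZT17, a difference of 0.39 ± 0.08 and a peak at 15 h (limma adjusted p = 0.00492). It shares 14.6% of its exon bases with Pde12 on the opposite strand, a gene with a mean value of 13.6 and a fitted peak at 17.2 h.

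Arf1, the GTPase that recruits coatomer, changed least among the rhythmic genes. Its values were 187, 179 and 189 at ZT21 and 242, 206 and 220.0 at ZT13, with a difference of 0.24 ± 0.07 on the log2 scale (limma adjusted p = 0.0352). Leaving out single livers ended this call in 7 of 18 cases, with an adjusted p of up to 0.0878, as did the marker covariate, with 0.0506, and equal column sums, with 0.0646. The difference was 0.23 and 0.22 in the last 2 fits. Arf2, Arf5 and Arf6 were not called, with differences of 0.27, 0.24 and 0.20, though Arf2 was with equal column sums (limma adjusted p = 0.0278). Arf5, however, was the 1 gene that passed the test over the 6 time point means without passing that of the cosine (limma adjusted p = 0.0490 and 0.101), with values of 47.8, 49.6 and 52 at ZT9 and of 67.4, 62.2 and 60.7 at ZT17. In a fit with cosines of 24 h and 12 h together, its 24 h term was called (limma adjusted p = 0.0424). Arf5 shares 16.4% of its exon bases with Gcc1 on the opposite strand, a gene with a mean value of 17.9 that was itself rhythmic with a peak at 13.7 h (limma adjusted p = 0.0232). By that test of any difference between time points 15 of the 48 genes were called, against 26.3% of all genes, and 14 of them were also rhythmic.

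The p24 family held the gene with the largest difference of all 48. Tmed3 (ENSMUSG00000032353, chromosome 9 from 89699206 to 89705068), a γ-type p24 protein, had values of 14.7, 17.3 and 15.3 at ZT1, 11.1, 9.90 and 11 at ZT5, 16.5, 13.7 and 15.9 at ZT9, 22.7, 20.2 and 23.8 at ZT13, 24.8, 27.3 and 18.8 at ZT17 and 13.1, 11.9 and 15.4 at ZT21. The ZT5 livers were the lowest and did not overlap with those of any other time point. Peak exceeded trough by 0.89 ± 0.16 on the log2 scale, with a peak at 15.3 h (limma adjusted p = 0.00153). Tmed9, an α-type p24 protein, moved with it, with values of 38.1, 41.9 and 41.6 at ZT5 and of 64.9, 84.5 and 68.3 at ZT17, a difference of 0.67 ± 0.11 and a peak at 16.7 h (limma adjusted p = 0.000709). Tmed5 peaked in the light instead. Its values were 116, 119 and 95.2 at ZT9 and 72.4, 73.8 and 57.5 at ZT17, with a difference of 0.67 ± 0.10 and a peak at 7.67 h (limma adjusted p = 0.000218).

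The most abundant p24 genes per kilobase, Tmed2 with 78.1, Tmed4 with 25 and Tmed10 with 21.2, were not called. Tmed2 and Tmed10 form the core of p24 complexes, and their fitted differences were 0.15 ± 0.07 and 0.10 ± 0.06 on the log2 scale. For Tmed4 the difference was 0.23 ± 0.07 (limma adjusted p = 0.0614), and 3 of the 8 alternatives that kept all livers called it. The 3 others, Tmed1, Tmed7 and Tmed8, had differences of 0.26, 0.16 and 0.15 and were not called, so that 3 of 9 p24 genes (33.3%) were rhythmic, near the 35.3% of all genes.

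Of the 3 Sec22 genes, too few to set against the 35.3% of all genes, 2 were rhythmic, 1 with its peak in the dark and 1 in the light. Sec22b (ENSMUSG00000027879, chromosome 3 from 97901190 to 97923276), the SNARE of vesicles between ER and Golgi, had values of 34.2, 40.6 and 34.2 at ZT5 and of 64.3, 66.2 and 58.9 at ZT17. Its difference was 0.65 ± 0.10 on the log2 scale with a peak at 17.2 h (limma adjusted p = 0.000226). Sec22c (ENSMUSG00000061536, chromosome 9 from 121680045 to 121705490), a homologue, had values of 8.56, 10.7 and 10.6 at ZT1, 16, 13.7 and 18.9 at ZT5, 18, 15.4 and 17.6 at ZT9 and 12.2, 10.8 and 13.2 at ZT13. All 6 livers of ZT5 and ZT9 were above those of the other 4 time points. The difference was 0.64 ± 0.14 with a peak at 7.98 h (limma adjusted p = 0.00455). With the summed Kupffer cell and endothelial markers as a covariate, the limma adjusted p of Sec22c was 0.0525, with a difference of 0.61 and a peak still at 7.98 h. Sec22a stayed between 10.2 and 14.5 (limma adjusted p = 0.0841), and was called with equal column sums (0.0158) and with the marker covariate (0.0495).

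Among golgins and GRASPs, 2 of 8 genes were rhythmic (25%, below the 35.3% of all genes). Gorasp1 (ENSMUSG00000032513, chromosome 9 from 119925257 to 119937565), which makes GRASP65 of the cis-Golgi, had values of 20.4, 16.2 and 19.8 at ZT1 and of 34.3, 29.2 and 28.4 at ZT13, with no overlap. Its difference was 0.63 ± 0.09 on the log2 scale with a peak at 12.2 h (limma adjusted p = 0.000188). It shares 32.1% of its exon bases with Wdr48 on the opposite strand, whose fitted peak was at 2.36 h, and without strand the reads of both genes cannot be told apart there. Golga2, which makes GM130, the partner of GRASP65, had values of 42.8, 37.8 and 35.9 at ZT5 and of 32.5, 31.5 and 28.1 at ZT17. It peaked at 5.68 h, with a difference of 0.34 ± 0.08 (limma adjusted p = 0.00591). Gorasp2, which makes GRASP55, and the golgins Golga1, Golga3, Golga4 and Golga5 were not called, nor was Golga7, whose difference of 0.06 was the smallest of the class. Golga3 was called with equal column sums (limma adjusted p = 0.0192).

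**Figure D3:**
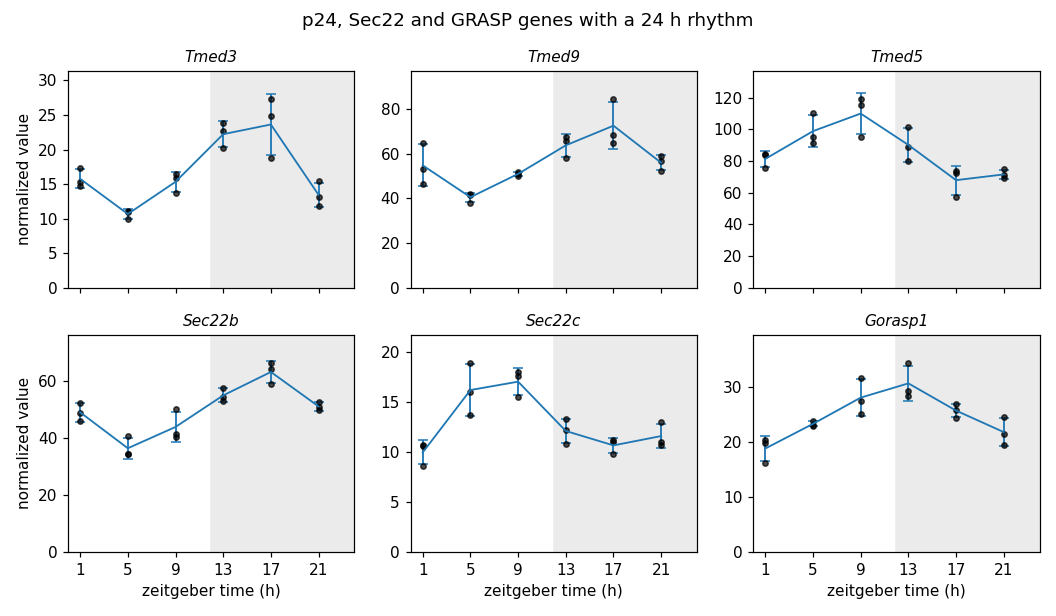
Normalized values (linear scale, axis from 0) of 6 rhythmic genes of the p24, Sec22 and GRASP classes against zeitgeber time in hours, with a point per liver, lines through the means of 3 livers, bars of 1 SD and the dark phase shaded. Tmed3, Tmed9 and Sec22b had their lowest means at ZT5 and their highest at ZT17, while Tmed5 and Sec22c had their highest at ZT9.

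Several coat proteins exist as paralogues, and the data show whether a pair kept its proportion over the day. For 11 pairs, set by homology, a cosine of 24 h was fitted to the log2 ratio of both genes in each liver and tested with a permutation test (100000 permutations of the time labels, one-sided on the share of variance explained), adjusted over the 11 pairs. For 8 pairs the ratio was rhythmic, a count with no background beside it, since ratios of other gene pairs were not computed. The widest swing was that of Copg1 to Copg2, from 0.95 ± 0.06 (SD) at ZT5 to 2.14 ± 0.08 at ZT17, with a fitted difference of 1.13 (permutation test, adjusted p = 0.000220). The mRNA of γ1 thus gained on that of γ2 at night, and the peaks of both genes lay 11.5 h apart.

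For Arf1 and Arf3 the log2 ratio went from 1.77 ± 0.12 (SD) at ZT9 to 2.53 ± 0.04 at ZT17 (fitted difference 0.72, permutation test, adjusted p = 0.000660). The share of Sar1a against Sar1b was highest at ZT5 and ZT9, with log2 ratios of -0.98 ± 0.06 and -0.91 ± 0.16, against -1.41 ± 0.05 at ZT1 and -1.43 ± 0.15 at ZT17 (fitted difference 0.57, permutation test, adjusted p = 0.00158). That of Sec23a to Sec23b swung by 0.72 (permutation test, adjusted p = 0.0127), with its peak at 4.59 h. Smaller swings, between 0.28 and 0.48, passed the test for Sec16a to Sec16b, Gorasp1 to Gorasp2, Arf4 to Arf5 and Sec24c to Sec24d. That of Sec24c to Sec24d was lost without replicate 1 of ZT1 or replicate 3 of ZT13. Neither Sec16 gene was called alone. The ratios of Sec31a to Sec31b, Copz1 to Copz2 and Sec24a to Sec24b did not pass (permutation test, adjusted p = 0.0606, 0.0606 and 0.0790), but each did in some alternatives, Sec31a to Sec31b with log2(value + 5) and in 2 fits without 1 liver, Copz1 to Copz2 in 4 such fits and Sec24a to Sec24b in 1.

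**Figure D4:**
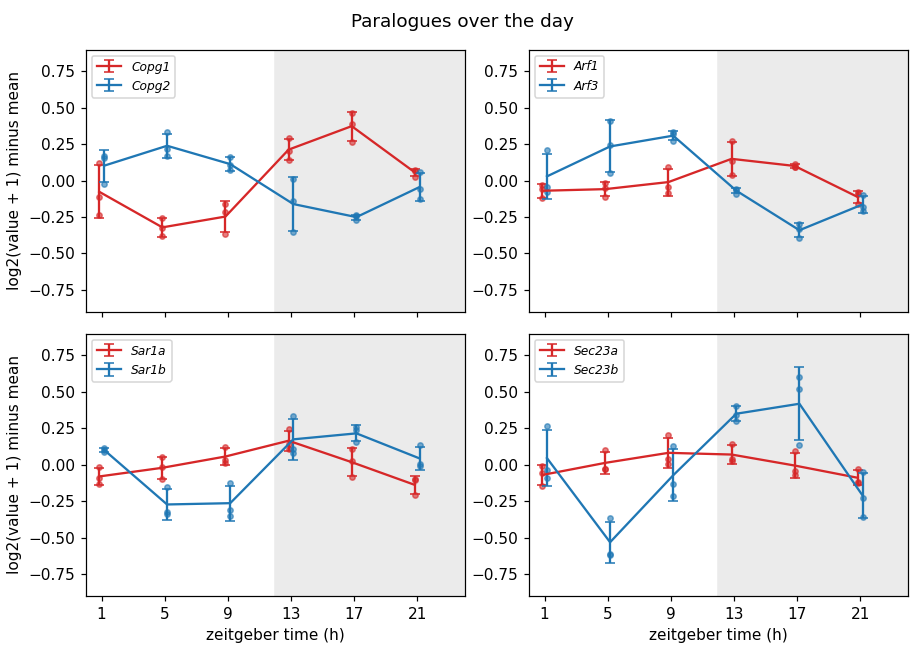
log2(value + 1) of both genes of 4 pairs, each minus its mean over the 18 livers, against zeitgeber time in hours, with a point per liver, lines through the means of 3 livers, bars of 1 SD and the dark phase shaded. Copg1 was above its mean and Copg2 below at ZT13 and ZT17, and in the pair of Sec23a and Sec23b only Sec23b swung widely.

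The steps between neighbouring time points show when the levels changed. Changes fell into 3 of the 6 steps. From ZT1 to ZT5, early in the light, 4 genes fell, namely Sec23b by 0.58, Tmed3 by 0.52, Sec22b by 0.42 and Sar1b by 0.38 on the log2 scale, against 2.36% of all genes that fell. At that step Sec22c rose by 0.65 ± 0.12 (SE; limma adjusted p = 0.00635), against 2.53% of all genes that rose. The 4 falls had limma adjusted p between 0.0237 and 0.0338, and all 4 were lost with equal column sums, with the marker covariate and without replicate 1 of ZT5, which left Sec22c alone. Without replicate 3 of ZT5, 3 of the 5 calls were left.

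From ZT9 to ZT13, across lights off, 3 genes rose, against 4.64% of all genes, and 3 fell, against 4.6%. Copg1 rose by 0.46 ± 0.10 (limma adjusted p = 0.00915), Tmed3 by 0.51 ± 0.13 and Sar1b by 0.44 ± 0.09 on the log2 scale. Sec22c fell by 0.46, Arf3 by 0.38 and Golga5 by 0.32, of which Golga5 was at the threshold (limma adjusted p = 0.0496) and was lost on leaving out any of 16 livers. The fall of Arf3 was lost with depth as a covariate and on leaving out any of the 6 livers of ZT9 and ZT13. The fall of Sec22c and the rise of Tmed3 were each lost on leaving out any of 4 of these livers. The calls of Copg1 and Sar1b held in all 8 alternatives that kept every liver and in all 18 that left out 1.

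From ZT17 to ZT21, late in the dark, Tmed3 fell by 0.76 and Sec23b by 0.63 (limma adjusted p = 0.0120 and 0.0371), against 0.568% of all genes that fell, and none of the 48 rose, against 0.941%. Both falls were lost without replicate 1 of ZT17 and without replicate 2 of ZT21. Neither of the steps from ZT5 to ZT9 and from ZT13 to ZT17 held a call by limma, where 0.637% and 0.671% of all genes rose and 0.9% and 0.533% fell, nor did that from ZT21 to ZT1, where 0.0277% rose and 0.104% fell. At an unadjusted p below 0.05 these 3 steps held 8, 2 and 2 of the 48 genes, against 1764, 2152 and 1326 of all 14449. The 3 steps with calls held 15, 17 and 13, against 2845, 3571 and 2093. In order from ZT1, the estimates of the 6 steps were positive for 21, 36, 27, 23, 12 and 32 of the 48 genes, against 7478, 6737, 7150, 6962, 7270 and 7358 of all genes.

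A rhythm of 12 h was not called for any of the 48 genes. In the fit with cosines of 24 h and 12 h together, 0.872% of all genes had a limma adjusted p below 0.05 for the 12 h term. At an unadjusted p below 0.05 there were 7 of the 48 genes, against 12.6% of all genes. Sar1b had the smallest limma adjusted p, 0.169, followed by Sec22c with 0.184. All 8 alternatives that kept every liver and the 18 fits without 1 liver each gave 0 calls as well. With 6 time points 4 h apart, a 12 h cosine rests on 3 points per cycle.

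The other genes of the route were read from 4 lists of 62 measured genes, of which 29 (46.8%) were rhythmic, against 35.3% of all genes and 51.6% of those at or above the median level of the 48. JTK called 10 of the 62, against 14.1% of all genes, and 6 of the 10 were cargo receptors. Of the 29, 21 peaked in the dark, against 48.4% of all rhythmic genes. Among the 16 cargo receptors and escorts measured of 17 listed, 8 (50%) were rhythmic, a share near that of genes at or above that median, and all 8 peaked in the dark. Mcfd2, which with Lman1 carries clotting factors out of the ER, had values of 133, 151 and 152 at ZT5 and of 299, 263 and 259.6 at ZT17. That is a difference of 0.87 ± 0.10 on the log2 scale with a peak at 18.2 h (limma adjusted p = 1.29e-05). Lman1, the lectin of the pair, had values of 228, 237 and 249.6 at ZT1 and of 345, 321 and 349 at ZT13 (difference 0.55 ± 0.08, limma adjusted p = 0.000117). Ergic1, a membrane protein that cycles between ER and Golgi, peaked later, at 20.5 h (difference 0.50 ± 0.08, limma adjusted p = 0.000683). The KDEL receptors Kdelr1 and Kdelr2, which return ER chaperones, were not called.

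**Figure D5:**
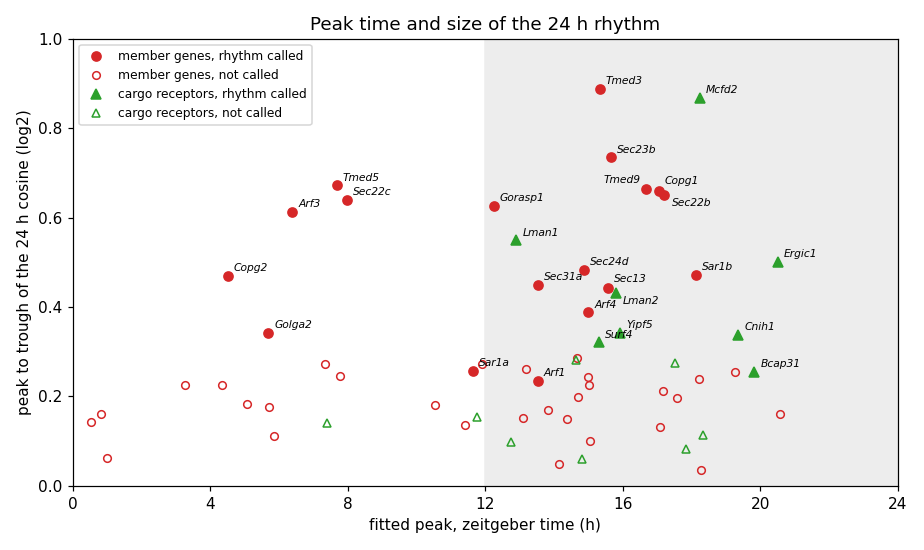
Fitted peak in hours of zeitgeber time (dark phase shaded) against the difference from peak to trough of the 24 h cosine (log2 scale) for the 48 genes (circles) and for 16 cargo receptors (triangles), filled where the rhythm was called. Filled circles lie between 4.50 and 7.98 h or between 11.6 and 18.1 h, and all filled triangles lie in the shaded dark phase.

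Of 13 regulators of the coats, 7 were rhythmic (53.8%, near the 51.6% of genes at or above the median level of the 48). JTK called 1 of the 13, against 14.1% of all genes. Preb, the exchange factor that loads Sar1 with GTP and so starts the COPII coat, had values of 74, 79.9 and 74 at ZT5 and of 119, 107 and 122 at ZT13 (difference 0.54 ± 0.09, limma adjusted p = 0.000667), and its peak at 14.4 h lay between those of Sar1a and Sar1b. Mia2 and Ctage5, which help large cargo leave the ER, peaked by day at 8.32 h and 8.54 h, but they are transcripts of 1 locus and their reads may be divided between them. Tethers and Rab GTPases had 6 rhythmic genes of 19 (31.6%, against 35.3% of all genes). Uso1, the p115 tether of the cis-Golgi, went from 88.9, 92.8 and 98.5 at ZT5 to 146, 145 and 131 at ZT17 (difference 0.45 ± 0.09, limma adjusted p = 0.00419). The others with the smallest p were Trappc5, with a difference of 0.41 ± 0.10, and Rab1a, with 0.29 ± 0.07.

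Among 14 further SNAREs and SNARE factors of the ER and Golgi, 8 were rhythmic (57.1%, against 35.3% of all genes and 51.6% of those at or above that median). JTK called 1 of the 14, against 14.1% of all genes. Bet1, which pairs with Sec22b in membrane fusion, had values of 37.7, 51.4 and 49.8 at ZT5 and of 79.7, 84.1 and 71.4 at ZT17 (difference 0.82 ± 0.13, peak at 20.3 h, limma adjusted p = 0.000497). Gosr2, a SNARE of the same complex, had a difference of 0.52 ± 0.09 and a peak at 14.3 h. Stx18, a SNARE of the ER membrane, had a difference of 0.48 ± 0.10 and a peak at 18.5 h. Stx5a, the syntaxin of that complex, was not called (limma adjusted p = 0.816).

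Factors of the ER stress response, which raise many secretory genes when proteins misfold, were rhythmic in 4 of 10 cases (40%), near the 35.3% of all genes. Atf4, the factor of the translation arm, was highest at ZT1 with 122 ± 7.74 and lowest at ZT9 with 74.6 ± 7.65 (difference 0.65 ± 0.12, limma adjusted p = 0.00160). Atf6 peaked at 10.3 h (difference 0.41 ± 0.09, limma adjusted p = 0.00424), and Atf6b at 18.6 h with 0.72 ± 0.17. The mRNA of Xbp1 had values of 182, 183 and 203 at ZT5 and of 262, 252 and 199 at ZT13, with overlap, and was not called (limma adjusted p = 0.852). These values are mRNA levels and give neither the cleavage of ATF6 nor the splicing of Xbp1.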

How the data were processed

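Livers were mapped to time points by the labelled zeitgeber time. Per the labels and the paper's methods, the authors removed adapters with Cutadapt, mapped reads to the GRCm38 transcriptome (Ensembl gene-build 84), quantified them with RSEM 1.2.20 and normalized the estimated counts with limma. What was deposited is thus a linear signal, in which the lowest value per liver stands for 0 reads. RSEM divides reads between similar transcripts, so values of close paralogues depend on that division. As deposited values were not whole counts, tests for counts were not used. Of 14451 genes, 2 were at the floor in every liver and were left out.

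Here limma 3.58.1 in R 4.3.3 was fitted to log2(value + 1) of 14449 genes, with moderated F tests of a 24 h cosine, of a 12 h cosine beside it and of 6 time point means, and moderated contrasts of neighbouring time points. Adjustment was by Benjamini–Hochberg over all genes, with a threshold of 0.05. Fold changes are on the log2(value + 1) scale, which understates those of low genes. JTK, with periods of 20, 24 and 28 h, and the permutation tests ran in Python 3.11.15 (numpy 2.4.6; scipy 1.17.1; pandas 2.3.3). The scripts were tested on simulated data. Coordinates and exon lengths are from GENCODE M21 (GRCm38), and promoters from RefSeq.

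The genes, lists and tests were chosen with earlier results of these data known. Named are, in each class, the 4 genes with the smallest 24 h p, the gene with the highest value per kilobase, all genes of the 11 pairs and any gene with a 12 h adjusted p below 0.05 (there was none), and in each other list the 3 genes with the smallest 24 h p. Others are named to account for the members of a class or complex and were chosen after their values were seen.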

Additional observations from a re-analysis of the deposited data

How the results depend on the processing

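The alternatives were log2 of the deposited value, log2(value + 5), a filter of at least 1 in at least 3 livers, equal column sums, median ratio scaling, an intensity trend, depth as a covariate, leaving out each liver, and, chosen after the data were seen, the Kupffer cell and endothelial markers as a covariate. For the 24 h test, JTK and a fit beside a 12 h cosine were added. The count of 18 rhythmic genes went from 13 (JTK) to 21 (log2(value + 5), equal column sums and intensity trend), and from 16 to 19 without single livers. Of the 18 genes, 15 were called in the 8 limma alternatives that kept every liver and in all 18 that left out 1, and no peak moved by more than 6 h. The genes that lost the call in some of them were Arf1, Sec22c and Sec24d. Of the 30 genes not called, 6 gained a call in at least 1 of those 8 alternatives. In at least 1 fit without a liver, 7 did (Arf2, Arf5, Cope, Sec23ip, Sec24b, Golga3 and Tmed4). The fit beside a 12 h cosine also called Arf5 (limma adjusted p = 0.0424). The 15 genes that differed between time points became 14 to 20, and 14 to 16 without single livers. The 8 rhythmic ratios became 8 or 9, and 7 to 9 without single livers, where Sec24c to Sec24d lost the call without replicate 1 of ZT1 or replicate 3 of ZT13 (permutation test, adjusted p = 0.0557 and 0.0635).

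The steps were less stable. From ZT1 to ZT5 the 5 calls became 1 with equal column sums and with the marker covariate, 3 with depth as a covariate, and 1 to 6 without single livers. They became 1 without replicate 3 of ZT1 or 1 of ZT5, 2 without replicate 2 of either, and 3 without replicate 3 of ZT5. From ZT5 to ZT9 the count of 0 became 1 with log2(value + 5) and with the intensity trend, and 0 to 1 without single livers, with 1 without replicate 1 of ZT13. From ZT9 to ZT13 the 6 calls became 2 to 7 without single livers, with 2 without replicate 3 of ZT9 or replicate 1 of ZT13 and 3 without replicate 2 of ZT13. From ZT17 to ZT21 the 2 calls became 1 with equal column sums and with depth as a covariate, and 0 to 3 without single livers. They became 0 without replicate 1 of ZT17 or 2 of ZT21, and 1 without replicate 2 of ZT17 or replicates 1 or 3 of ZT21. The cause of these moves was not tested. The scalings moved the median of all genes by less than 0.1 on the log2 scale in every liver. With equal column sums, however, the shift differed between times of day. The column sums before this scaling were 941088, 969019 and 967823 at ZT5 and 1043536, 1077230 and 1030952 at ZT17. Equal column sums thus raised the ZT5 livers against those of ZT17. Arf2, Sec23a, Sec22a and Golga3, which gained a call with it, had their fitted peaks in the light there. Whether the column sums differ for a biological or a technical reason was not tested.

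No paired analysis was possible because whole livers were taken and no mouse was followed over time. With 3 livers per time point and a single cycle sampled, a rhythm is told only as a difference between times of day. No member was near the floor, and each was covered by at least 33 reads in every liver.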

Other observations

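Markers of other liver cells were measured besides those given above. Summed over 7 stellate cell markers, led by Dcn, the values ran from 163.9 to 266 per liver, and none of the 7 was rhythmic. Of 5 cholangiocyte markers, led by Spp1, 3 were rhythmic (Sox9, Krt19 and Epcam), with a sum of 31.5 to 57.5. Those of 3 lymphoid and 3 neutrophil markers reached at most 14.0 and 2.72. Of the 8 hepatocyte markers, 4 were rhythmic (Serpina1c, Cyp2e1, Ttr and Tat). Over all genes the share of rhythmic genes was 35.3%.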
